A study of Mus musculus with 2 samples.

Results

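The CD3 chains and the signalling adaptors with ITAM motifs, together with the kinases and scaffold that act directly on them, are described here as 10 genes of the 22032 in the count table. The members were chosen by name, with earlier results of these data known. They are Cd3g, Cd3d, Cd3e, Cd247, Fcer1g, Tyrobp, Lck, Lat, Zap70 and Syk. All 10 were in the table, and all 10 had at least 20 UMIs in every comparison between gates. The study sorted DN1 cells by flow cytometry from the thymus of embryos of a mouse strain named 5x polychromILC, at E15.5 and at E19.5. It sequenced 1 droplet library (10x 3′ v3) per stage. Both labelled groups share the strain, the tissue and the sort, and no untreated, mutant or replicate group was given. The deposited table pools both libraries. Its barcodes end in suffix 2 or suffix 1, and no label ties a suffix to a stage, so values are given by suffix and never by stage.

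An ITAM is a short motif with a pair of tyrosines in the cytoplasmic tail of a membrane protein. In an alpha-beta T cell, the antigen receptor has no signalling tail of its own. It associates with the CD3 gamma, delta and epsilon chains and a CD247 (zeta) homodimer. The kinase Lck phosphorylates the ITAMs, Zap70 docks on them, and Zap70 then phosphorylates the scaffold Lat, which gathers downstream enzymes. NK and myeloid receptors use the same logic with other parts: Fcer1g (the Fc receptor gamma chain) and Tyrobp (DAP12) carry the ITAM, and Syk, the relative of Zap70, can dock on it. Innate lymphoid cells lack an antigen receptor, and the thymus is where CD3 genes are first switched on in developing T cells.

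Barcodes were sorted into gates by marker genes, none of which is a member. A gate required at least 2 UMIs (deduplicated transcript counts) of each gate gene, and a barcode that met several gates was left out. The ILC2 gate (Icos and Rora) held 978 barcodes, the NK/ILC1 gate (Xcl1 and Nkg7) 1276, the gamma-delta gate (Sox13 and Blk) 34, the alpha-beta gate (Cd8b1) 52, the DN2/DN3 gate (Myb and Bcl11b) 200 and the progenitor gate (Spi1 and Bcl11a) 742. By suffix, suffix 2 and suffix 1 gave 790 and 188 barcodes to the ILC2 gate, 494 and 782 to the NK/ILC1 gate, 84 and 116 to the DN2/DN3 gate, and 521 and 221 to the progenitor gate. All gamma-delta and alpha-beta gate barcodes carried suffix 2. Before barcodes of several gates were left out, the DN2/DN3 gate held 401 barcodes, the gamma-delta gate 89 (6 of suffix 1) and the alpha-beta gate 88. Median depth differed between gates: 13282.5 UMIs per barcode in ILC2, 11238 in NK/ILC1, 15063 in gamma-delta, 3848.5 in alpha-beta, 38524 in DN2/DN3 and 32092.5 in progenitor barcodes. Levels are summed UMIs per 1000000 UMIs of the gate (CPM) with an exact Poisson 95% interval, which covers counting error only. With 1 library per stage there is no replicate, so no difference was tested and no p-value is given.

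The marker lists separated some gates and not others, and the gates are called by their gate genes. The summed level of 9 NK/ILC1 markers was 3668 CPM in the NK/ILC1 gate. The 9 early T progenitor markers summed to 741 CPM in the progenitor gate. The 9 ILC2 markers summed to 679 CPM in the ILC2 gate and 379 CPM in the DN2/DN3 gate. Within the ILC2 gate they summed to 756 CPM in suffix 2 and 448 in suffix 1. The NK/ILC1 markers summed to 468 CPM in suffix 1 of the ILC2 gate. The alpha-beta gate had 3136 CPM of 7 alpha-beta thymocyte markers, against 28.2 CPM in the gamma-delta gate, where Cd4, Rag1 and Rag2 were at 0. The 7 gamma-delta markers summed to 1755 CPM in the gamma-delta gate and 1719 in the alpha-beta gate, so their sum did not separate these gates. Cd163l1 had 370 CPM in the gamma-delta gate and 35.3 in the alpha-beta gate, whereas Tcf7 had 312 and 1115 CPM. The 7 DN2/DN3 markers summed to 743 CPM in the DN2/DN3 gate and 2837 in the alpha-beta gate. NK/ILC1 markers were also high in the gamma-delta gate (2581 CPM, of which Gzma gave 2540) and in the DN2/DN3 gate (1614 CPM, of which Gzma gave 1578). Before barcodes with keratin UMIs were left out, 551 suffix 1 barcodes formed the cluster with the highest Krt8 level. Only clusters of at least 100 barcodes were compared. Of the 782 suffix 1 barcodes of the NK/ILC1 gate, 355 belonged to this cluster. NK/ILC1 values are therefore also given without this cluster wherever that moved a call or a value by over 1.5 times. Between the suffixes, 25 barcode sequences were shared, and 15 gated barcodes carried one of them. The label of the extraction describes a lysis that yields nuclei, so whether the counts come from cells or nuclei is not settled.

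The gene arrangement matters for reading the CD3 values. Cd3g and Cd3d lie head to head on mouse chromosome 9 in build GRCm38 (GENCODE M21), with Cd3g at chr9:44969572-44980431 on the minus strand and Cd3d at chr9:44981786-44987339 on the plus strand. Their start sites are 1355 bp apart. Cd3e lies beyond the 3′ end of Cd3d, at chr9:44998740-45009627 on the minus strand. Cd247 is on chromosome 1 at chr1:165788681-165877277 (plus strand), and Fcer1g on the same chromosome at chr1:171229572-171234365 (minus strand). Annotated genes overlap Cd3e (Gm48720), Cd247 (Gm16565), Lck (Mir8119) and Lat (Mir7058) on the same strand, and Cd3e (Gm48719), Zap70 (Gm18828) and Cd247 (Pou2f1 among others) on the other strand. UMIs of these 5 members could include a neighbour's reads, those from the other strand only if strand was not used in the counting, which no source here states.

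The promoters of the 4 CD3 chain genes and of Fcer1g are shown because these genes part in the gates below. They are RefSeq sequences of build GRCm38.p6, from 250 bases before to 50 bases after the start site, written 5′ to 3′ on the gene's strand. Capitals mark matches on either strand to 5 words. The RUNX word was TGTGGT, the TCF/LEF word was CTTTGA and the GATA word was AGATAA. The ETS word was AGGAAG, which the PU.1 word GAGGAAGT contains.
Cd3g: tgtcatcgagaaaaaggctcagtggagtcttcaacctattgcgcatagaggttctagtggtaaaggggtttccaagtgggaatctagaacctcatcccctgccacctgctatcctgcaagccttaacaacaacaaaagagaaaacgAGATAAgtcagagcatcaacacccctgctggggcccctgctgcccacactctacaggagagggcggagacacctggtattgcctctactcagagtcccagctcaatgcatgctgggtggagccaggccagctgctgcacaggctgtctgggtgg
Cd3d: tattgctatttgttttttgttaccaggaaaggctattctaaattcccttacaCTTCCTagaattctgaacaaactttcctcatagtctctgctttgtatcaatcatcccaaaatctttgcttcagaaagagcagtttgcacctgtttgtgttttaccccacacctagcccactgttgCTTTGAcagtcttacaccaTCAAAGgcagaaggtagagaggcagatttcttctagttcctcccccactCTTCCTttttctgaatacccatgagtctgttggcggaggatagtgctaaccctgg
Cd3e: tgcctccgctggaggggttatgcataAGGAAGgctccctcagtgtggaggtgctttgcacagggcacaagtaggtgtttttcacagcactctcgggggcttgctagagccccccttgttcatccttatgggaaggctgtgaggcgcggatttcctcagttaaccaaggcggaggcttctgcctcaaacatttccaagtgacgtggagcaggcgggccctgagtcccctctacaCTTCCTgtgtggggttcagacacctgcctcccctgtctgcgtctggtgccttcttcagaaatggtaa
Cd247: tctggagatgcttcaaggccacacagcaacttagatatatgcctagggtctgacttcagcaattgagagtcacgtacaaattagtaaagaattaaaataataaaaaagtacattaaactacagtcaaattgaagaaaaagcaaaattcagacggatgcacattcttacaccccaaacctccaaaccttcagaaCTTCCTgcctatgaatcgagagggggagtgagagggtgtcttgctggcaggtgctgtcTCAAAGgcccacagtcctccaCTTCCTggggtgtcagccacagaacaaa
Fcer1g: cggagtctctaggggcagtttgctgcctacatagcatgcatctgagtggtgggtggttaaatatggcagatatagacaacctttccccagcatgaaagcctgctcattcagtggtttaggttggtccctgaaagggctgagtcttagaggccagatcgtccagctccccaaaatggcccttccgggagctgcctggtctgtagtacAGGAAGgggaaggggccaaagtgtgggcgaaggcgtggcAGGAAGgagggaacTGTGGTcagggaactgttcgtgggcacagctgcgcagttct
These windows are chr9:44980382-44980681 (minus strand) for Cd3g, chr9:44981536-44981835 (plus) for Cd3d, chr9:45009562-45009861 (minus) for Cd3e, chr1:165788431-165788730 (plus) for Cd247 and chr1:171234300-171234599 (minus) for Fcer1g. The Cd3g window held 1 GATA match and no match to the other 4 motifs in capitals. The Cd3d window held 2 TCF/LEF and 2 ETS matches, and the Cd247 window 1 TCF/LEF and 2 ETS matches. The Cd3e window held 2 ETS matches, and the Fcer1g window 1 RUNX and 2 ETS matches. Of 32851 mouse promoters of the same length, 16.8% held the RUNX word, 16.0% the TCF/LEF word, 11.2% the GATA word, 35.4% the ETS word and 3.20% the PU.1 word. The E-box word CANNTG, not in capitals, was found in all 5 windows and in 72.3% of all promoters. A match is only a match of letters. RefSeq promoters were found for 9 of the 10 members.

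Cd3g, the gamma chain, parted from the other CD3 chains. Summed over both suffixes, it lay between 769.7 and 1484 CPM in all 5 lymphoid gates, including the ILC2 and NK/ILC1 gates, whereas Cd3d, Cd3e and Cd247 were highest in the gamma-delta and alpha-beta gates. Cd3g had 769.7 CPM in ILC2 (interval 755 to 784), 1484 in NK/ILC1 (1465 to 1503), 1288 in gamma-delta (1193 to 1388), 1472 in alpha-beta (1340 to 1613) and 1311 in DN2/DN3 barcodes (1285 to 1337), against 20.7 CPM in progenitors (18.9 to 22.6). In these sums over both suffixes, NK/ILC1 and alpha-beta barcodes did not differ beyond their intervals, nor did DN2/DN3 and gamma-delta barcodes. The gamma-delta and alpha-beta gates hold suffix 2 alone. Within suffix 2, Cd3g had 2012 CPM in NK/ILC1 (1977 to 2048) and 822.5 in DN2/DN3 barcodes (790 to 856). Both pairs differed beyond their intervals there. Over the progenitors of both suffixes, its log2 ratio was 5.22 in ILC2, 6.16 in NK/ILC1, 5.96 in gamma-delta, 6.15 in alpha-beta and 5.98 in DN2/DN3 barcodes. Progenitor Cd3g was 6.99 CPM in suffix 2 and 53.1 in suffix 1, so these are not the ratios within a suffix. The gamma-delta and alpha-beta ratios set suffix 2 barcodes against progenitors of both suffixes.

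Cd3d, the delta chain, took a different order. It had 40.2 CPM in ILC2 and 122 in NK/ILC1, 1216 in gamma-delta, 1346 in alpha-beta and 142 in DN2/DN3 barcodes, against 1.69 CPM in progenitors. The gamma-delta and alpha-beta intervals overlapped, and no other neighbours in this order did. Its log2 ratio over progenitors was 4.57 in ILC2 (4.12 to 5.06), 6.17 in NK/ILC1 (5.73 to 6.65), and 6.39 in DN2/DN3 barcodes (5.95 to 6.87). These ratios are also over both suffixes, and progenitor Cd3d was 1.15 CPM in suffix 2 and 2.98 in suffix 1.

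Cd3e, the epsilon chain that pairs with both gamma and delta, was lowest of the lymphoid gates in NK/ILC1. It had 62.3 CPM in ILC2, 14.4 in NK/ILC1, 435 in gamma-delta, 498 in alpha-beta and 113 in DN2/DN3 barcodes, against 1.37 CPM in progenitors. NK/ILC1 over ILC2 gave a log2 ratio of −2.11 (−2.33 to −1.90), in the same direction within suffix 2 (−2.12) and within suffix 1 (−1.82). Without the Krt8 cluster the NK/ILC1 level of Cd3e was 9.84 CPM, and 4.29 CPM in suffix 1, against 13.8 CPM with the cluster. The Krt8 cluster itself, which can include barcodes left out of the gates for keratin UMIs, had 27.7 CPM of Cd3e.

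Cd247, the zeta chain, was the CD3 gene with the widest gap between the T cell gates. It had 21.4 CPM in ILC2, 29.1 in NK/ILC1, 593 in gamma-delta, 267 in alpha-beta and 44.4 in DN2/DN3 barcodes, against 2.25 CPM in progenitors. The gamma-delta interval (529.5 to 662) and the alpha-beta interval (212 to 331) did not overlap. These gates held 34 and 52 barcodes, all of suffix 2.

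**Figure D1:**
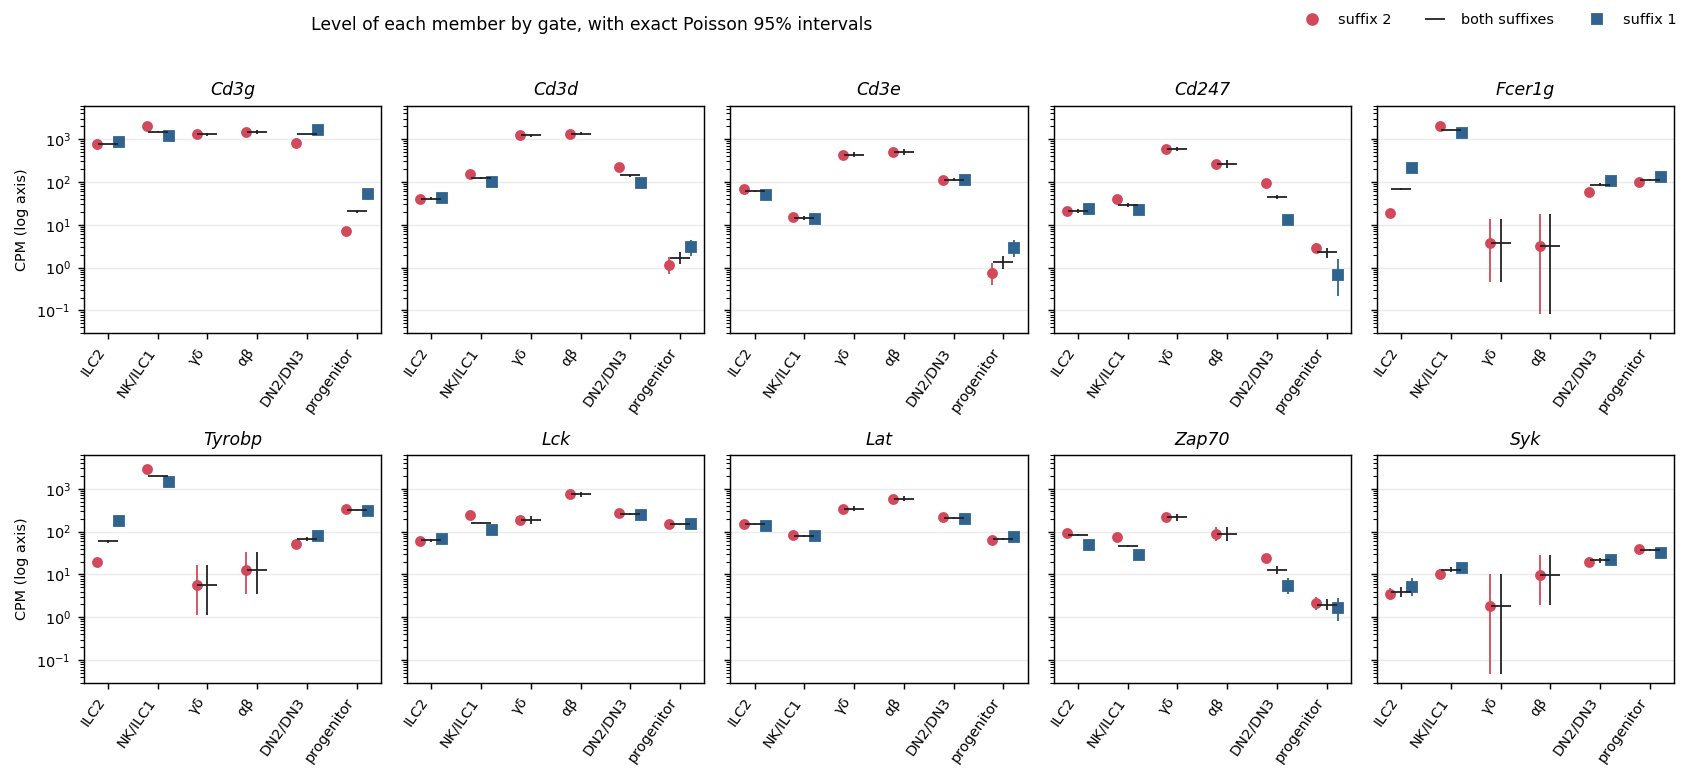
Level of each of the 10 members by gate, in CPM on a log axis, with red circles for suffix 2, black bars for both suffixes and blue squares for suffix 1. Vertical lines are exact Poisson 95% intervals. The black bars of Cd3g stay between 769.7 and 1484 CPM in all gates but the progenitor gate, and single suffixes there between 747.5 and 2012 CPM. The black bars of Fcer1g and Tyrobp reach 1657 and 2000 CPM in the NK/ILC1 gate and lie at or below 327 CPM in the other gates.

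The share of each chain within a pair, which does not depend on the CPM scaling, set the gamma-delta and alpha-beta gates apart. Cd3d made up 4.96% of Cd3d plus Cd3g UMIs in ILC2, 7.60% in NK/ILC1, 48.6% in gamma-delta, 47.8% in alpha-beta and 9.79% in DN2/DN3 barcodes, against 7.55% in progenitors. The Cd3d share was 20.9% in suffix 2 and 5.52% in suffix 1 of the DN2/DN3 gate, and 14.1% and 5.31% in progenitors, where it rests on 20 and 22 Cd3d UMIs. Cd3e made up 7.49% of Cd3e plus Cd3g in ILC2, 0.960% in NK/ILC1 and 25.3% in each of gamma-delta and alpha-beta barcodes, with 7.96% in DN2/DN3 barcodes and 6.20% in progenitors. In DN2/DN3 barcodes it was 12.1% in suffix 2 and 6.54% in suffix 1, and in progenitors 9.63% and 5.08%. Without the Krt8 cluster it was 0.590% in NK/ILC1. 3′ counts of different genes are not measured on 1 common scale, so these shares are read between gates and not as levels of chains.

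The number of chains per barcode also set the gamma-delta and alpha-beta gates apart from the others. Each barcode was thinned to 5000 UMIs, which left out barcodes below that depth, among them 32 of the 52 alpha-beta barcodes. All 4 chains had a UMI in 30 of 34 gamma-delta barcodes (88.2%) and 10 of 20 alpha-beta barcodes. In ILC2 it was 13 of 967 (1.34%), in NK/ILC1 9 of 1256 (0.717%) and in DN2/DN3 21 of 199 (10.6%). In progenitors it was 0 of 741 (exact interval up to 0.497%). Cd3g was the single chain detected in 55.5% of ILC2 and 60.4% of NK/ILC1 barcodes, against 3.91% of progenitors. Cd3g had a UMI in 83.8% of ILC2, 97.4% of NK/ILC1 and 80.9% of DN2/DN3 barcodes, against 4.32% of progenitors from the same suffixes. The other chains were rarer in NK/ILC1 barcodes, with a Cd3e UMI in 5.41%, or 2.55% without the Krt8 cluster, against 0.405% of progenitors.

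**Figure D2:**
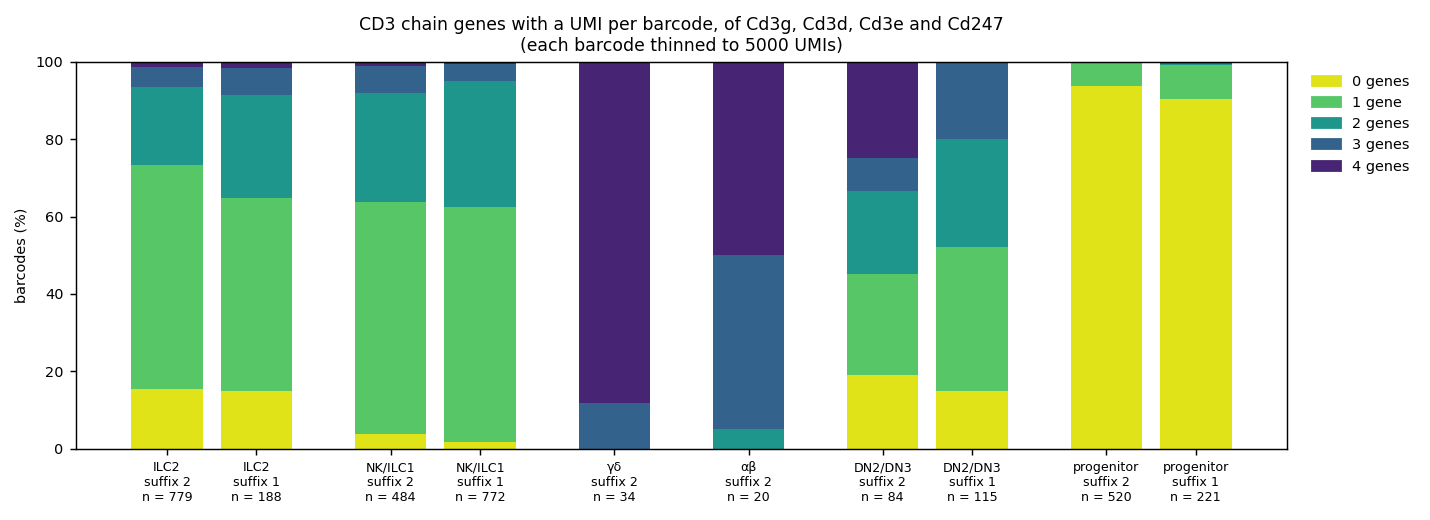
Number of CD3 chain genes with a UMI per barcode thinned to 5000 UMIs, as a percentage of barcodes of each gate and suffix, coloured from 0 genes (yellow) to 4 genes (dark blue). All 34 gamma-delta and 19 of 20 alpha-beta barcodes carry 3 or 4 chain genes, and most ILC2 and NK/ILC1 barcodes carry 1.

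Fcer1g and Tyrobp, the ITAM adaptors of Fc and NK receptors, were highest in the NK/ILC1 gate and had at most 4 UMIs in the gamma-delta and alpha-beta gates. Fcer1g had 67.4 CPM in ILC2, 1657 in NK/ILC1, 3.75 in gamma-delta (2 UMIs, interval up to 13.6), 3.21 in alpha-beta (1 UMI, interval up to 17.9) and 85.1 in DN2/DN3 barcodes, against 109.8 CPM in progenitors. Tyrobp had 59.5 CPM in ILC2, 2000 in NK/ILC1, 5.63 in gamma-delta (3 UMIs), 12.9 in alpha-beta (4 UMIs) and 67.5 in DN2/DN3 barcodes, against 327 CPM in progenitors. Fcer1g and Tyrobp were thus 3.92 (3.86 to 3.97) and 2.61 (2.58 to 2.65) log2 units higher in NK/ILC1 than in progenitors. Their log2 ratios of gamma-delta over progenitor barcodes were −4.87 (−7.92 to −3.02) and −5.86 (−8.14 to −4.31), on 2 and 3 UMIs.

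Progenitors carried both adaptors with few UMIs of the CD3 chains. At 5000 UMIs, Tyrobp was detected in 72.2% of progenitors and Fcer1g in 37.4%, and both together in 28.5%. Of NK/ILC1 barcodes, 98.4% carried both, and 97.1% carried Cd3g with at least 1 of them, against 3.78% of progenitors. Gamma-delta barcodes with Cd3g and either adaptor numbered 1 of 34. The progenitor gate also held 225 CPM of myeloid markers, of which Mpo was the main one, and their part in the adaptor levels was not tested. The DN2/DN3 gate had 341 CPM of mast cell or basophil markers, against 187 CPM in progenitors and 212 CPM in gamma-delta barcodes. In the DN2/DN3 gate, Cpa3 gave 321 CPM and Mcpt8 17.5 CPM (0.346 in suffix 2 and 28.3 in suffix 1). Gata2 and Ms4a2 were at 0.805 CPM each, and Prss34 and Fcer1a at 0.268 CPM each. Ms4a2 and Fcer1a are the other chains of the mast cell receptor that uses Fcer1g. The part of these markers in the adaptor levels was not tested.

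The partner of the adaptor pair changed between gates as well. Cd247 made up 24.1% of Cd247 plus Fcer1g UMIs in ILC2, 1.73% in NK/ILC1, 99.4% in gamma-delta, 98.8% in alpha-beta and 34.3% in DN2/DN3 barcodes, against 2.01% in progenitors. This share moved with the suffix: it was 52.5% in suffix 2 and 9.99% in suffix 1 of the ILC2 gate, 61.7% and 11.4% in DN2/DN3 barcodes, and 2.82% and 0.514% in progenitors. The gamma-delta and alpha-beta values come from suffix 2 alone. Tyrobp made up 46.9% of Tyrobp plus Fcer1g UMIs in ILC2, 54.7% in NK/ILC1 and 44.2% in DN2/DN3 barcodes, against 74.9% in progenitors.

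Over all gates, progenitors included, Lck and Lat separated less than any of the 4 chains. Over the lymphoid gates alone, Cd3g varied less (769.7 to 1484 CPM) than Lck (62.7 to 739 CPM) and Lat (80.9 to 588 CPM). Lck, which phosphorylates ITAMs, had 62.7 CPM in ILC2, 161 in NK/ILC1, 188 in gamma-delta, 739 in alpha-beta and 258 in DN2/DN3 barcodes, against 148 CPM in progenitors. ILC2 barcodes had the lowest Lck, at a log2 ratio of −1.24 (−1.34 to −1.13) over progenitors. Lat, the scaffold of the T cell signal, had 147 CPM in ILC2, 80.9 in NK/ILC1, 345 in gamma-delta, 588 in alpha-beta and 207 in DN2/DN3 barcodes, against 66.7 CPM in progenitors. NK/ILC1 and progenitor barcodes differed in Lat by a log2 ratio of 0.28 (0.17 to 0.38). Without the Krt8 cluster the intervals overlapped, at 63.0 to 72.3 CPM in NK/ILC1 and 63.5 to 70.0 CPM in progenitors. Within suffix 1, NK/ILC1 Lat was 80.5 CPM with the cluster and 53.3 CPM without it, against 74.0 CPM in progenitors. Within suffix 2 it was 81.5 CPM, against 63.6 CPM in progenitors. Without the Krt8 cluster, Lat in NK/ILC1 was 67.5 CPM, which was more than 2-fold below ILC2, whereas the log2 ratio with the cluster was −0.86.

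Zap70 and Syk, relatives that dock on phosphorylated ITAMs, ran in nearly opposite orders. Alpha-beta barcodes ranked above ILC2 barcodes for both kinases, with overlapping intervals each time. Zap70 had 83.3 CPM in ILC2, 46.2 in NK/ILC1, 216 in gamma-delta, 89.97 in alpha-beta and 12.8 in DN2/DN3 barcodes, against 1.97 CPM in progenitors. Syk had 3.93 CPM in ILC2, 12.9 in NK/ILC1, 1.88 in gamma-delta (1 UMI), 9.64 in alpha-beta (3 UMIs) and 21.2 in DN2/DN3 barcodes, against 37.2 CPM in progenitors. Zap70 thus made up 95.5% of Zap70 plus Syk UMIs in ILC2, 78.2% in NK/ILC1, 99.1% in gamma-delta, 90.3% in alpha-beta and 37.5% in DN2/DN3 barcodes, against 5.03% in progenitors. In DN2/DN3 barcodes the Zap70 share was 54.7% in suffix 2 (interval 45.7 to 63.5) and 25 of 125 UMIs in suffix 1 (interval 13.4% to 28.1%). At 5000 UMIs, barcodes with both kinases were 0.931% of ILC2 and 1.35% of NK/ILC1 barcodes, against 0.405% of progenitors. In DN2/DN3 barcodes it was 0 of 199 (exact interval up to 1.84%).

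**Figure D3:**
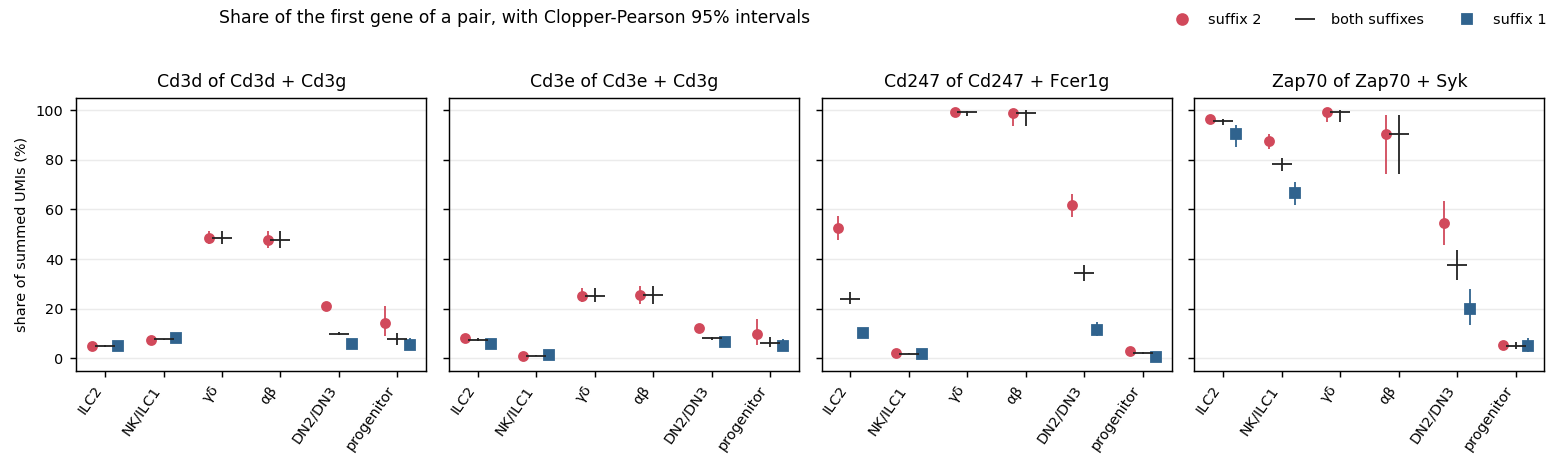
Share of the first gene in the summed UMIs of 4 gene pairs, in percent, by gate, with red circles for suffix 2, black bars for both suffixes, blue squares for suffix 1 and Clopper-Pearson 95% intervals. Over both suffixes, Cd3d reaches 48.6% of Cd3d plus Cd3g in gamma-delta barcodes and 4.96% in ILC2, and Zap70 makes up 5.03% of Zap70 plus Syk in progenitors.

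Read against progenitors with a 2-fold threshold, 6 of 10 members were higher and 3 lower in ILC2, where 13.4% of all genes with at least 20 UMIs were higher and 16.8% lower. In NK/ILC1, 7 were higher and 1 (Syk) lower, against 11.7% and 18% of all genes. In gamma-delta barcodes 6 were higher and 3 lower, against 18.2% and 12.7%. In alpha-beta barcodes 7 were higher and 3 lower, against 26.3% and 12.1%. Of these 3, Syk rests on 3 UMIs (9.64 CPM, interval 1.99 to 28.2). Its interval reaches within 2-fold of the 37.2 CPM in progenitors. In DN2/DN3 barcodes 6 were higher and 1 (Tyrobp) lower, against 3.87% and 7.84% of all genes. NK/ILC1 against ILC2 had 5 higher (Cd3d, Fcer1g, Tyrobp, Lck and Syk) and 1 lower (Cd3e), against 7.69% and 9.61%. All 5 comparisons with progenitors share the same progenitor barcodes. A count of 0 entered a ratio as 3 counts, which is 5.63 CPM in the gamma-delta and 9.64 CPM in the alpha-beta gate. The shares of all genes called higher there can thus include genes with no UMI in the gate. Every member had a UMI in both of these gates.

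Within suffix 2, 6 members were higher and 4 lower in ILC2 than in progenitors (13.1% and 17.3% of all genes), 7 and 1 in NK/ILC1 (13.6% and 19.1%) and 6 and 1 in DN2/DN3 barcodes (4.35% and 7.27%). Alpha-beta barcodes had 7 higher and 3 lower (23.7% and 12.3%), with Syk again resting on 3 UMIs. NK/ILC1 over ILC2 gave 6 and 1 (8.1% and 9.47%). Within suffix 1, 5 members were higher and 2 lower in ILC2 (11.5% and 13.2% of all genes), 7 and 1 in NK/ILC1 (9.5% and 16.7%), and 6 and 1 in DN2/DN3 barcodes (3.01% and 5.11%). NK/ILC1 over ILC2 gave 4 and 1 there (6.38% and 8.17%). In ILC2 over progenitors, Fcer1g and Tyrobp passed 2-fold lower within suffix 2 and neither did within suffix 1, where Lat (0.91) was also within 2-fold.

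The largest ratio of a member between the suffixes was that of Fcer1g in the ILC2 gate. Fcer1g had 18.7 CPM in suffix 2 and 213.5 in suffix 1 (log2 ratio −3.52, −3.75 to −3.29), and Tyrobp 19.8 in suffix 2 and 178 in suffix 1 (−3.17, −3.40 to −2.94). No member was 2-fold higher and 2 were lower in suffix 2, where 7.5% of all genes were higher and 4.03% lower. Cd3g was close in both suffixes, with 747.5 CPM in suffix 2 and 836 in suffix 1. Zap70 had 94.9 CPM in suffix 2 and 48.5 in suffix 1, a log2 ratio of 0.97.

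The Fcer1g UMIs of the ILC2 gate came from few barcodes. In suffix 1, 45 of 188 barcodes (23.9%, exact interval 18.0 to 30.7) had at least 3 Fcer1g UMIs and gave 98.1% of them, while 130 had none. In suffix 2, 12 of 790 barcodes (1.52%) had at least 3 and gave 86.7% of them, while 753 had none. At 5000 UMIs, Fcer1g was detected in 2.95% of suffix 2 and 47 of 188 suffix 1 barcodes of the ILC2 gate. Of the 779 suffix 2 barcodes, 2 had 6 to 9 and 2 had 10 or more Fcer1g UMIs of 5000. Gamma-delta barcodes had a share of 2.94%, with a median of 15063 UMIs at full depth, but this rests on 1 of 34 barcodes (exact interval 0.0744 to 15.3). The NK/ILC1 gate had 99.4% in suffix 2 and 98.6% in suffix 1.

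This subset was chosen after its values were seen and is given as a description. The 45 suffix 1 barcodes with at least 3 Fcer1g UMIs had 700 CPM of Tyrobp, 878 of Cd3g and 11.2 of Cd3e, whereas the 130 without had 7.71 CPM of Tyrobp, 815 of Cd3g and 59.9 of Cd3e. Klrd1, an NK receptor chain, was at 435 CPM in those with Fcer1g and 5.67 CPM in those without, and Ncr1 at 42.6 CPM with and at 0 without. Bcl11b, a T and ILC2 transcription factor, was at 30.2 CPM with Fcer1g and 155 without. Icos was at 222 CPM with and 795 without, although every barcode of the gate had at least 2 Icos UMIs. Xcl1 was at 5.60 CPM with Fcer1g and 2.43 CPM without, in a gate that left out barcodes with at least 2 UMIs of both Xcl1 and Nkg7. The 9 NK/ILC1 markers summed to 70.6 CPM in suffix 2 and 468 in suffix 1 of the ILC2 gate, with none at 0. Their part in the Fcer1g and Tyrobp difference was not tested.

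**Figure D4:**
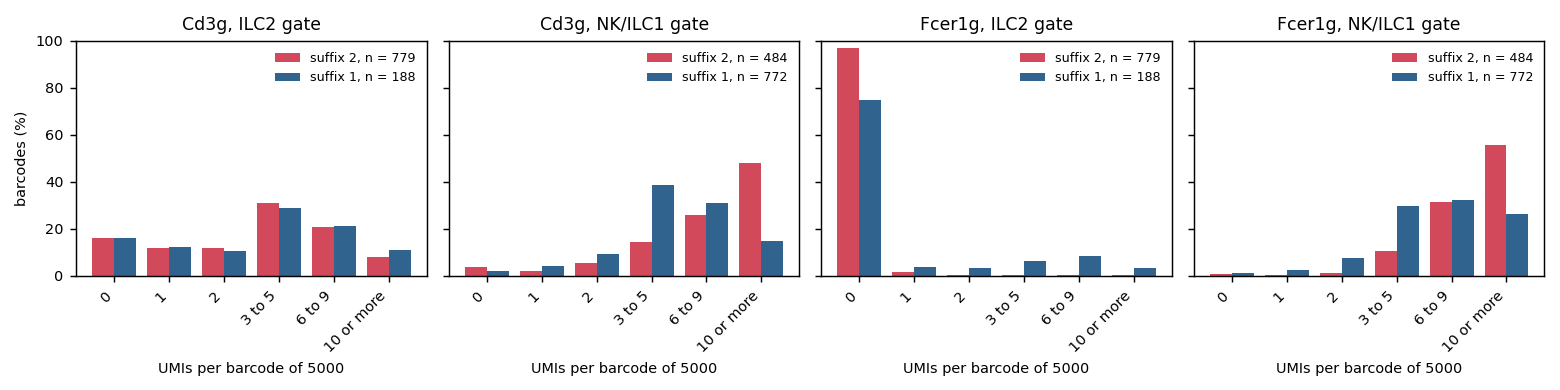
Distribution of Cd3g and Fcer1g UMIs per barcode, after thinning each barcode to 5000 UMIs, in the ILC2 and NK/ILC1 gates, with suffix 2 in red and suffix 1 in blue. Bars are percentages of barcodes. Fcer1g has a UMI in 2.95% of suffix 2 barcodes and in 47 of 188 suffix 1 barcodes of the ILC2 gate, while Cd3g has one in 83.7% and 84.0%.

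In the NK/ILC1 gate, 3 members were at least 2-fold higher in suffix 2 and none lower, where 11.4% of all genes were higher and 6.1% lower. Tyrobp had 2931 CPM in suffix 2 and 1424 in suffix 1, Lck 241 and 111, and Zap70 74.3 and 28.8. Without the Krt8 cluster, 427 suffix 1 barcodes remained, Tyrobp and Lck were within 2-fold (log2 ratios 0.94 and 0.82) and 2 members were higher, Zap70 (1.12) and Cd3e (1.84). None was lower, and of all genes 5.5% were higher and 3.06% lower. Cd3g had 2012 CPM in suffix 2 and 1157 in suffix 1, or 1301 without the cluster.

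In the DN2/DN3 gate, 3 members were higher in suffix 2 and none lower, against 3.95% and 1.71% of all genes. Cd247 had 93.7 CPM in suffix 2 and 13.2 in suffix 1 (log2 ratio 2.83, 2.42 to 3.26). Cd3d had 217 and 94.6 CPM, and Zap70 24.2 and 5.49 CPM, in suffix 2 and suffix 1. Cd3g ran the other way and just inside 2-fold, with 822.5 CPM in suffix 2 and 1620 in suffix 1 (−0.98, −1.05 to −0.91). Cd3e had 113 CPM in suffix 2 and 113.5 in suffix 1.

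All 4 CD3 chains were detected at 5000 UMIs in 21 of 84 DN2/DN3 barcodes of suffix 2. In suffix 1 it was 0 of 115 (exact interval up to 3.16%). The 28 suffix 2 barcodes with at least 3 Cd247 UMIs gave 86.7% of them, and the same barcodes had 767 CPM of Cd3d, 287 of Cd3e, 102.9 of Blk, 55.6 of Sox13 and 82.6 of Zap70. The 31 suffix 2 barcodes without Cd247 had 43.1 CPM of Cd3d, 32.1 of Cd3e, 5.06 of Blk, 13.5 of Sox13 and 5.06 of Zap70. Their median depth was 14847.5 UMIs with Cd247 and 39625 without. The 25 suffix 2 barcodes with 1 to 2 Cd247 UMIs are in neither set. Splitting on Cd247 UMIs was not planned, and the values are a description. Blk and Sox13 are the gamma-delta gate genes, and Cd8a was at 4.15 CPM in this gate in suffix 2 and at 0 in suffix 1. The part of gamma-delta cells in the suffix difference was not tested.

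In the progenitor gate, 1 member was higher in suffix 2 and 3 were lower, against 3.83% and 1.33% of all genes. Cd3g had 6.99 CPM in suffix 2 and 53.1 in suffix 1 (log2 ratio −2.93, −3.23 to −2.63). In suffix 1, 10 of 221 progenitor barcodes had at least 3 Cd3g UMIs and gave 89.8% of them, and in suffix 2 it was 3 of 521 barcodes, with 9.02% of them. The 10 suffix 1 barcodes had 37.7 CPM of Cd3e, 2094 of Gzma and 77.7 of Bcl11a. The 179 suffix 1 progenitors without Cd3g had 0.513, 120 and 174 CPM. Median depth was 44893 UMIs in the 10 and 32807 in the 179 barcodes. The 32 suffix 1 barcodes with 1 to 2 Cd3g UMIs are in neither set. This split on a member's own UMIs was not planned and is given as a description. Cd247 had 2.92 CPM in suffix 2 (51 UMIs) and 0.677 in suffix 1 (5 UMIs).

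**Figure D5:**
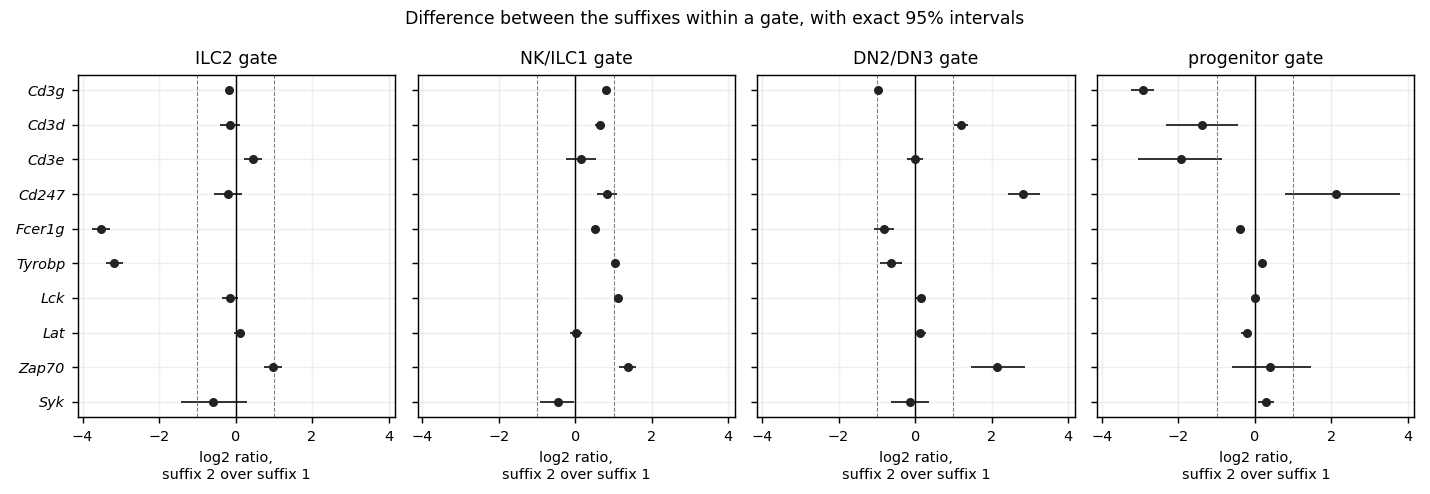
Log2 ratio of the level of each member in suffix 2 over suffix 1, within 4 gates, with exact 95% intervals for counting error. Dashed lines mark 2-fold. Fcer1g and Tyrobp lie at −3.52 and −3.17 in the ILC2 gate, and Cd247 lies at 2.83 in the DN2/DN3 gate.

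Other genes of the T cell receptor cascade were read from a list of 22 without the members. At least 20 UMIs in both gates together were found for 21 or 22 of them. For all lists a count of 0 entered a ratio as 3 counts. Genes with no UMI in a small gate can thus count as higher and raise its median. Over progenitors, 10 were higher and 4 lower in ILC2 (median log2 ratio 0.80, against −0.12 over all genes), and 10 and 4 in NK/ILC1 (0.55, against −0.22). In gamma-delta barcodes 17 were higher and none lower (1.84, against 0.04), in alpha-beta barcodes 18 and none (2.51, against 0.27), and in DN2/DN3 barcodes 8 and none (0.66, against −0.01). Skap1, an adaptor that links the receptor to integrins, had 430 CPM in ILC2, 229 in NK/ILC1, 342 in gamma-delta, 386 in alpha-beta and 88.2 in DN2/DN3 barcodes, against 7.69 CPM in progenitors. Ptprc, the phosphatase CD45 that keeps Lck active, had 251 CPM in ILC2, 335 in NK/ILC1, 319 in gamma-delta, 543 in alpha-beta and 129 in DN2/DN3 barcodes, against 146 CPM in progenitors. Rhoh and Grb2, the other most abundant members of the list, ranged from 114 to 521 CPM and from 139 to 240.3 CPM over the lymphoid gates.

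Receptors coupled to ITAM adaptors or to DAP10, a further adaptor, were read from a list of 17. Over progenitors, 4 were higher and 1 lower of 7 measured in ILC2 (13.4% and 16.8% of all genes), 5 and 2 of 8 in NK/ILC1 (11.7% and 18%), 2 and 1 of 4 in gamma-delta (18.2% and 12.7%), 2 and none of 4 in alpha-beta (26.3% and 12.1%), and none and 2 of 5 in DN2/DN3 barcodes (3.87% and 7.84%). The same shares of all genes stand behind the counts of the other lists. Klrk1 (NKG2D) had 52.7 CPM in ILC2, 557 in NK/ILC1, 1.88 in gamma-delta, 12.9 in alpha-beta and 0.671 in DN2/DN3 barcodes, against 0.604 CPM in progenitors. Hcst, which encodes DAP10, had 323 CPM in ILC2 and 326 in NK/ILC1, against 31.1 CPM in progenitors. Ncr1, a receptor of NK cells, had 2.83 CPM in ILC2 and 155 in NK/ILC1, against 0.201 CPM in progenitors. Cd79b, a chain of the B cell receptor, had 59.7 CPM in ILC2, 23.9 in NK/ILC1 and 73.2 in gamma-delta barcodes, against 44.7 CPM in progenitors.

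Of a list of 12 SRC and TEC family kinases and adaptors known mainly outside T cells, 11 were measured in ILC2, and 3 (Sh2d1a, Src and Yes1) were higher and 7 lower than in progenitors (median log2 ratio −2.56, against −0.12 over all genes). Sh2d1a encodes SAP, an adaptor that T and NK cells also use. NK/ILC1 had 5 higher and 2 lower of 11. Of 10 measured, gamma-delta barcodes had 2 and 5, alpha-beta barcodes 2 and 4, and DN2/DN3 barcodes 1 and 5. Btk, the kinase of the B cell receptor pathway, had 0.482 CPM in ILC2, 3.92 in NK/ILC1 and 30.2 in DN2/DN3 barcodes, against 48.6 CPM in progenitors. Lat2, the relative of Lat in myeloid and B cells, had 10.8 CPM in ILC2, 95.7 in NK/ILC1 and 23.4 in DN2/DN3 barcodes, against 70.6 CPM in progenitors. Plcg2 and Lyn had 4.89 and 7.17 CPM in ILC2, against 46.8 and 35.3 CPM in progenitors.

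All 12 inhibitors of the cascade on the list were measured. Over progenitors, 4 were higher and 2 lower in ILC2 (13.4% and 16.8% of all genes), 4 and none in NK/ILC1 (11.7% and 18%), 4 and none in gamma-delta (18.2% and 12.7%), 4 and 1 in alpha-beta, near the 26.3% and 12.1% of all genes, and none in either direction in DN2/DN3 barcodes. Pag1, which holds the inhibitory kinase Csk at the membrane, had 57.1 CPM in ILC2 and 114 in NK/ILC1, against 26.3 CPM in progenitors. Ptpn6, the phosphatase SHP-1, had 40.4 CPM in ILC2 and 159 in NK/ILC1, against 125 CPM in progenitors. Csk had 190.3 CPM in ILC2 and 162 in NK/ILC1, against 129 CPM in progenitors, and Dok2, an inhibitory adaptor, 147 and 247 CPM, against 109.4 CPM in progenitors.

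The genes most like each member were read over 10 sums of a gate within a suffix, by Pearson correlation of log2(CPM + 1) among 9578 candidates. These points share their libraries, and the values are a description. Cd3g was most like Txk (0.94), Thy1 (0.91) and Polr2g (0.86), and Cd3e most like Lef1 (0.97), Lat (0.94) and Hist1h3c (0.93). Cd3d was most like Nebl (0.96), Cd247 (0.95) and Dusp10 (0.93). Fcer1g was most like Gpr141, Arap3 and Cfap126 (0.97 to 0.98), and Tyrobp most like Cd244 (0.98), Clta and Fcgr3 (0.97 each). Cd247 was most like Cxx1b, Cd3d and Ifngr1 (0.95 each), and Lat most like Bicdl1 (0.96), Lef1 and Lig4 (0.95 each). Lck was most like Tcf7 (0.95), Spint2 (0.92) and Plekhf2 (0.91). Zap70 was most like Agtpbp1, Sept1 and Cyth1 (0.98 each), and Syk most like Nfu1 (0.97), Bcl7c (0.97) and Slc35d3 (0.96). The genes named depend on the setting. With a pseudocount of 10 CPM, Cd247 was most like Hist1h2af, Brf1 and Cd3d, Lat most like Cd3e, Lef1 and Nck2, and Fcer1g most like Tyrobp. With Spearman correlation, 9 of the 10 members kept at most 1 of their 3 genes. Among the members, Fcer1g and Tyrobp gave 0.96 over these points, Zap70 and Syk −0.91, and Cd3g and Fcer1g −0.03.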

How the data were processed

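Per the labels' protocols, DN1 cells were sorted from embryonic thymus and sequenced as 1 droplet library per stage. The deposited table holds raw UMI counts of 22032 genes in 6057 barcodes, which the authors made with Cell Ranger 3.0.2; the submitters' processing notes also name STAR and build GRCm38. No label ties a suffix to a stage.

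Barcodes with at least 500 genes and at most 10% mitochondrial counts were kept (542 failed), 103 Scrublet doublets were removed per suffix (93 in suffix 2 and 10 in suffix 1), and 269 barcodes with at least 2 UMIs of Krt8 and Krt18 were left out. The 5143 kept barcodes held 93213167 UMIs, with 713 to 113167 each. Gate counts were summed as CPM. Levels have exact Poisson 95% intervals, shares have Clopper-Pearson ones, and log2 ratios have exact intervals conditional on the total. UMIs are molecules, and intervals cover counting error only. The suffix of each barcode served as the only batch, and values are given within each suffix. Counts of barcodes with a gene were made after thinning to 5000 UMIs. The Krt8 cluster came from Leiden clustering in scanpy 1.11.5 on 2000 variable genes, 30 components and 15 neighbours. It was made before barcodes with keratin UMIs were left out. Calls used a ratio of at least 2 among genes with at least 20 UMIs in both gates together. Scripts ran in Python 3.11.15 with scipy 1.17.1 and were tested on simulated data.

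The genes named were the 10 members, the 3 genes most like each and the most abundant of each list. Members, gates and lists were chosen with earlier results of these data known. T cell receptor chain genes were not analysed here.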

Additional observations from a re-analysis of the deposited data

Results flagged for a closer look

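Values of opposite sign stood out between the suffixes. The log2 ratio of Fcer1g in ILC2 over progenitor barcodes was −2.43 within suffix 2 and 0.70 within suffix 1. The log2 ratio of Lck in NK/ILC1 over progenitor barcodes was 0.70 within suffix 2 and −0.41 within suffix 1. Without the Krt8 cluster, Lck in suffix 1 was 137 CPM (128 to 146) in NK/ILC1, against 148 CPM (139 to 157) in progenitors, with overlapping intervals. Neither suffix has a replicate, so neither difference was tested.

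Members were also present in barcodes that no comparison used. The 10 members summed to 2049 CPM in the 269 barcodes with keratin UMIs and to 3646 CPM in the 542 barcodes that failed the filter on genes and mitochondrial UMIs.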

How the results depend on the processing

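No paired analysis was possible because each stage has 1 library and the table's barcodes carry no replicate number. Counts of members past 2-fold moved by over 1.5 times in 2 of 188 alternatives: 2 members (Tyrobp and Syk) were lower in DN2/DN3 than in progenitor barcodes with gates on thinned UMIs, against 1, and 2 (Cd3e and Lat) were lower in NK/ILC1 than in ILC2 barcodes without the Krt8 cluster, against 1. That last setting, and keeping gamma-delta and alpha-beta barcodes that also met the DN2/DN3 gate, were chosen after seeing the data. Other values moved more often: the alternative lay outside the 95% counting interval in 250 of 940 log2 ratios, 77 of 410 pair shares and 73 of 120 detection shares, and at most 1 of the 3 most alike genes was kept in 13 of 20. No called direction turned. Of 60 member levels, 14 moved by over 1.5 times with a gate of 1 UMI, 1 with 3 UMIs, 14 with barcodes of several gates kept, 12 with gates on thinned UMIs, 4 with the mean CPM of each barcode and 30 without mitochondrial and ribosomal protein genes, a scaling that shifted all log2 ratios of a comparison by −0.10 to −0.03. With barcodes of several gates kept, progenitor Cd3g was 82.8 CPM and ILC2 Fcer1g 139 CPM. Gamma-delta Tyrobp was then 35.8 CPM, alpha-beta Fcer1g 49.6 CPM, DN2/DN3 Cd247 69.5 CPM and DN2/DN3 Zap70 22.6 CPM. With doublets kept, alpha-beta Fcer1g was 43.1 CPM and Tyrobp 67.7 CPM. The mean CPM of each barcode gave 88.8 CPM of Cd247 in the DN2/DN3 gate. The gamma-delta and alpha-beta gates had no suffix 1 barcodes, so suffix 1 alone gave no value there. The 34 and 52 barcodes of those gates limit the precision of members with few UMIs.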

Other observations

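Members were also measured in barcodes outside the gates. The 1610 barcodes in no gate had 589.8 CPM of Cd3g, 315.5 of Fcer1g, 402 of Tyrobp and 53.5 of Zap70. The 251 barcodes in several gates had 670.3 CPM of Cd3g and 260.1 of Cd3d. The 52 barcodes that met both the gamma-delta and the DN2/DN3 gate were left out of both. With them, the gamma-delta gate held 6 suffix 1 barcodes, in which all 4 CD3 chains had a UMI at 5000 UMIs and Cd247 was at 601 CPM (461 to 771).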
